A study of Mus musculus with 9 samples.

Results

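The transcription factors Pou5f1 (Oct4), Sox2, Nanog, Esrrb, Sall4 and Zfp281, which act in the pluripotent state of mouse embryonic stem cells (ESCs), were followed through RNA immunoprecipitation libraries of WDR5. They were chosen by gene symbol, and are 6 of the 24132 symbols in the deposited table. All 6 passed the filter on low values, at least 1 RPKM in at least 2 libraries, which kept 9787 genes. RPKM is the number of reads on a gene scaled by its transcript length and by the mapped reads of the library, so it can be compared between genes.

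The study asked which RNAs WDR5, a subunit of the complexes that methylate lysine 4 of histone H3, holds on to in ESCs. V6.5 ESCs, a line of 129/B6 hybrid origin grown on gelatin in medium with LIF, received a lentivirus that carried no tagged protein (empty vector), human WDR5 with FLAG and HA tags at the N-terminus (WDR5 WT), or tagged WDR5 with a phenylalanine replaced by alanine and a shortened N-terminus (WDR5 F266A). RNA was recovered after formaldehyde crosslinking by purification over FLAG and then over HA (the IP), and was sequenced in 2 IP libraries and 1 input library of each line, 9 libraries in all. All 3 lines kept their own mouse Wdr5, and each tagged line was an isolated clone, so that a difference between lines is also a difference between clones.

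Pou5f1, Sox2 and Nanog form the centre of the pluripotency network. Pou5f1 and Sox2 bind DNA together at a composite site and, with Nanog, occupy the regulatory DNA of each other's genes and of many genes that are on in ESCs. Esrrb is an orphan nuclear receptor that sustains self-renewal downstream of Nanog and of GSK3 inhibition, Sall4 is a zinc finger protein that binds Pou5f1 and Nanog and works with the NuRD deacetylase complex, and Zfp281 is a zinc finger protein that binds G-rich promoters and can restrain Nanog. WDR5 itself has been described as a partner of Pou5f1 in self-renewal, which is why the transcripts of these factors are of interest in a WDR5 pull-down.

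The DNA letters that Pou5f1 and Sox2 proteins read were found in promoters of these genes themselves. RefSeq (GRCm38.p6) gave windows of 300 bases, from 250 before to 50 after an annotated start, for 5 of the 6 genes, 8 windows in all. The windows of Nanog and Sox2 are shown because they hold the octamer core, ATGCAAA, which is read by POU factors such as Pou5f1. Capitals mark the octamer core and the Sox motif, CATTGT, both searched on both strands.
Nanog, chr6:122707239-122707538, plus strand: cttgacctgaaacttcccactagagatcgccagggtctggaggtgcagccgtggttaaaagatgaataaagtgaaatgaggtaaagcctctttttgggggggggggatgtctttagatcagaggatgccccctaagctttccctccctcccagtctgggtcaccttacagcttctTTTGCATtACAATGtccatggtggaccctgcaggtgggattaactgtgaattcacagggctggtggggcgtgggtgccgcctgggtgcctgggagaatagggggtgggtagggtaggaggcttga
Sox2, chr3:34649745-34650044, plus strand: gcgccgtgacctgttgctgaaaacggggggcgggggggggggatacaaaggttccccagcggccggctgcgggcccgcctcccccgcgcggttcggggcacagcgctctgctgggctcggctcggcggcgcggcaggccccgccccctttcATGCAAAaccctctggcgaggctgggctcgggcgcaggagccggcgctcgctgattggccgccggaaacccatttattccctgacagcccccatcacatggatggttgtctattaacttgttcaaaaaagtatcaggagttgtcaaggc

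In the Nanog window the octamer core began at position -75 from the start and the Sox motif at -67, both as the reverse complement and 1 base apart. Such a pair, in one orientation and 1 base apart, stood in 2 of the 32851 promoter windows, or 0.00609%, and both were windows of Nanog that overlap each other. This spacing was chosen after the Nanog window was seen, so its rarity is no support. With 0 to 6 bases between the motifs, a pair in one orientation stood in 9 windows, or 0.0274%. The octamer core alone stood in 4.63% of all windows and began at -99 in the Sox2 window. The Sox motif, in 12.6% of all windows, began 32 bases after a start of Esrrb and at -158 in a window of Pou5f1. A match of letters is a description and not evidence of binding.

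Before the levels, 1 library needs mention. The summed RPKM of the Y-linked genes Ddx3y, Uty and Eif2s3y lay between 7.41 and 9.48 in the 3 empty vector libraries, and between 0.182 and 0.324 in the 3 WDR5 WT libraries. Of the F266A libraries, the input had 4.43 and IP replicate 2 had 7.21, but IP replicate 1 had 0.0383. The same library also differed from its line in 15 endoderm markers, whose summed RPKM was 75.4 in the F266A input and 94.9 in F266A IP replicate 2, against 36.8 in F266A IP replicate 1 and 35.0 to 45.1 in the other 6 libraries. Single markers in F266A IP replicate 1 went both ways. Gata4, at 0.695 RPKM, and Dab2, at 0.916, were above the WT and empty vector libraries, which reached 0.171 and 0.261. Gata6, Sox7, Pdgfra and Cubn, all under 1 RPKM there, and Col4a1 and Col4a2 were also above all WT and empty vector libraries. Sparc, at 12.2 RPKM, and Lamb1, at 2.69, were the only markers below all of those libraries. The largest terms of the sum of 36.8 were Lamc1, at 14.6 RPKM, and Sparc. F266A IP replicate 1 therefore stood apart from both other libraries of its label, and the differences in IP level of the F266A line are also given without it where they moved by over 1.5-fold or changed call. The 37 ESC markers were other pluripotency factors and genes commonly listed as activated by Pou5f1 and Sox2 or as ESC-specific. Of these, 34 were at 1 RPKM or more in every library. All 8 mesoderm markers were under 1 RPKM in every library, as were 6 of 8 trophectoderm and 7 of 8 fibroblast markers. Fewer were so low among the neural markers, 4 of 8, and the primed epiblast markers, 2 of 6. The summed RPKM of the epiblast markers ran from 28.7 in the F266A input to 82.2 in WT IP replicate 1.

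The 6 factors were well measured. Estimated depth was 37500000 to 50200000 mapped reads in the inputs and 13400000 to 27300000 in the IPs, which puts 316 to 1279 reads on Zfp281 and 354 to 985 reads on Nanog, the genes with the fewest, and up to 7230 on Esrrb. Pou5f1 had the highest mean RPKM of the 6 over the 9 libraries, 57.1, above Sall4 at 24.8, Esrrb at 24.5, Sox2 at 15.2, Nanog at 9.46 and Zfp281 at 5.12. Among the 9787 tested genes these means stood at the 97.8th, 94.8th, 94.8th, 90.9th, 84.0th and 68.5th percentile. Every step of this order held in 9 of 9 libraries except the step from Sall4 to Esrrb, where Sall4 was the higher in 4 of 9, so these neighbours did not differ beyond their spread.

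**Figure D1:**
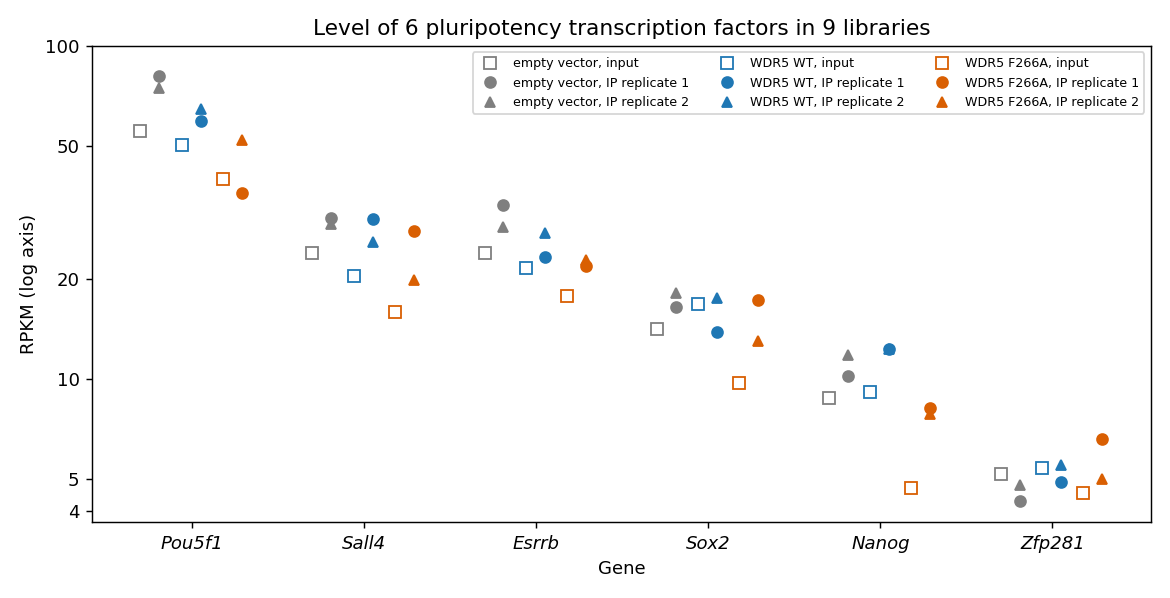
RPKM (log axis) of the 6 factors in the 3 lines, with open squares for inputs, circles for IP replicate 1 and triangles for IP replicate 2. Pou5f1 lies highest throughout, from 36.3 to 81.1 RPKM, and the open square of the F266A input is the lowest of the 3 inputs for each gene.

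Pou5f1, the POU domain factor without which the inner cell mass is not kept, lies on chr17:35642982-35647721 of mm9, plus strand. Input RPKM was 55.5 with the empty vector, 50.2 with WT and 39.8 with F266A. IP RPKM was 81.1 and 74.9 with the empty vector, 59.4 and 64.8 with WT, and 36.3 and 52.0 with F266A. The IPs of the lines did not overlap, and fell in the order empty vector, WT, F266A. RefSeq names 5 retrocopies of Pou5f1, of which 1 has a row in the deposited table, Gm5712 (Pou5f1-rs4), at 1.67 to 4.72 RPKM. Its lowest and highest values were in the same libraries as those of Pou5f1, and how reads that fit both were assigned is not stated, so the values of Pou5f1 carry that uncertainty.

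Sox2, the HMG box partner of Pou5f1, is a gene of a single exon on chr3:34548927-34551383 of mm9, plus strand, within the long noncoding gene Sox2ot but with 0 exon bases in common with it. Input RPKM was 14.1 with the empty vector, 16.8 with WT and 9.69 with F266A. IP RPKM was 16.5 and 18.1 with the empty vector, 13.8 and 17.5 with WT, and 17.2 and 13.0 with F266A. The IP values of the 3 lines overlapped, while the F266A input was the lowest of all 9 libraries. Sox2ot was at 0.333 to 1.07 RPKM.

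Nanog, the homeodomain factor whose level varies from cell to cell in ESC cultures, lies on chr6:122657507-122664651 of mm9, plus strand. Input RPKM was 8.76 with the empty vector, 9.10 with WT and 4.70 with F266A. IP RPKM was 10.2 and 11.8 with the empty vector, 12.3 and 12.3 with WT, and 8.16 and 7.85 with F266A. Both WT IPs were above the 4 other IPs, and both F266A IPs were below the 4 other IPs. The share of all tested genes was not computed for the first of these, and was 17% for the second. The spread of Nanog was the widest of the 6, with a highest over lowest library of 2.62-fold. RefSeq names 2 Nanog pseudogenes, with no row in the table.

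Esrrb lies on chr12:87702067-87862578 of mm9, plus strand. Input RPKM was 23.8 with the empty vector, 21.5 with WT and 17.7 with F266A. IP RPKM was 33.4 and 28.7 with the empty vector, 23.2 and 27.3 with WT, and 21.8 and 22.8 with F266A. Like those of Pou5f1, its IP values fell in the order empty vector, WT, F266A without overlap, an order whose share over all tested genes was not computed. Sall4 lies on chr2:168573832-168593443 of mm9, minus strand, and shares 526 exon bases with the antisense lincRNA gene Gm14261. Since it is not stated that counting used strand, reads from those bases cannot be told apart. Sall4 input RPKM was 23.9 with the empty vector, 20.4 with WT and 15.8 with F266A. IP RPKM was 30.3 and 29.2 with the empty vector, 30.2 and 25.8 with WT, and 27.8 and 19.9 with F266A. Both F266A IPs were below both empty vector IPs, with the higher of them in replicate 1.

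Zfp281 was the flattest of the 6. It lies on chr1:138521478-138526630 of mm9, plus strand, and its input RPKM was 5.16 with the empty vector, 5.38 with WT and 4.52 with F266A. IP RPKM was 4.29 and 4.78 with the empty vector, 4.88 and 5.52 with WT, and 6.60 and 4.99 with F266A. The highest over lowest library was 1.54-fold. It was the factor whose F266A IPs were both above its empty vector IPs.

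Within a library, the ratio of one factor to another does not depend on the library's scaling. Sox2 over Pou5f1 was 0.475 in F266A IP replicate 1 and 0.203 to 0.334 in the other 8 libraries, and Sall4 over Pou5f1 was 0.768 there and 0.374 to 0.508 in the other 8. Nanog over Pou5f1 was 0.225 there, 0.118 in the F266A input and 0.125 to 0.207 in the remaining 7. F266A IP replicate 2 had a Sox2 over Pou5f1 ratio of 0.249, close to the 0.244 of its input. The library that stood apart in Y-linked and endoderm RNA was thus also the one with the least Pou5f1 beside the other factors.

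In the inputs, which measure the RNA of the lines before any purification, all 6 factors were lowest in the F266A line. Of all tested genes, 58.9% were lowest there, and 41.5% after each library was scaled to the same median, with the 6 factors still lowest. Nanog was 1.77-fold and Sox2 1.66-fold lower in the F266A than in the WT input on the log2 (RPKM + 1) scale, and these 2 of 6 passed 1.5-fold, as did 6.45% of all tested genes. Against the empty vector input, Nanog was 1.71-fold lower and was 1 of 6 past 1.5-fold, against 7.34% of all tested genes. Sall4 was 1.48-fold lower, but on the log2 (RPKM + 0.1) scale it was 1.51-fold lower, past 1.5-fold. The median difference of the 6 factors was -0.34 on the log2 scale against WT and -0.48 against the empty vector, where the median of all tested genes was -0.11 and -0.12. WT and empty vector inputs differed by under 1.5-fold for all 6, where 0.633% of tested genes were past 1.5-fold lower in WT and 0.511% higher. Each line had 1 input library, so there is no replicate check and no test. In RNA from a whole culture, fewer cells that express a factor and less of its RNA per cell cannot be told apart.

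The F266A input also carried more endoderm RNA, and 14 of the 15 endoderm markers were highest there among the inputs. Col4a1, a basement membrane collagen, was at 5.40 RPKM against 0.301 and 0.279 in the WT and empty vector inputs. Dab2, an endocytic adaptor, was at 3.02 RPKM against 0.0755 and 0.176. Gata4, the transcription factor that marks extraembryonic endoderm, was at 1.90 RPKM against 0.0688 and 0.157. The part of this difference in the lower levels of the 6 factors was not tested. The F266A IPs had endoderm sums of 36.8 in replicate 1 and 94.9 in replicate 2. In these, Pou5f1 was at 36.3 and 52.0 RPKM and Esrrb at 21.8 and 22.8. Sall4 was at 27.8 and 19.9 RPKM, Sox2 at 17.2 and 13.0, Nanog at 8.16 and 7.85, and Zfp281 at 6.60 and 4.99. Replicate 1 also stood apart in Y-linked RNA, and a link of these values to endoderm RNA was not tested.

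**Figure D2:**
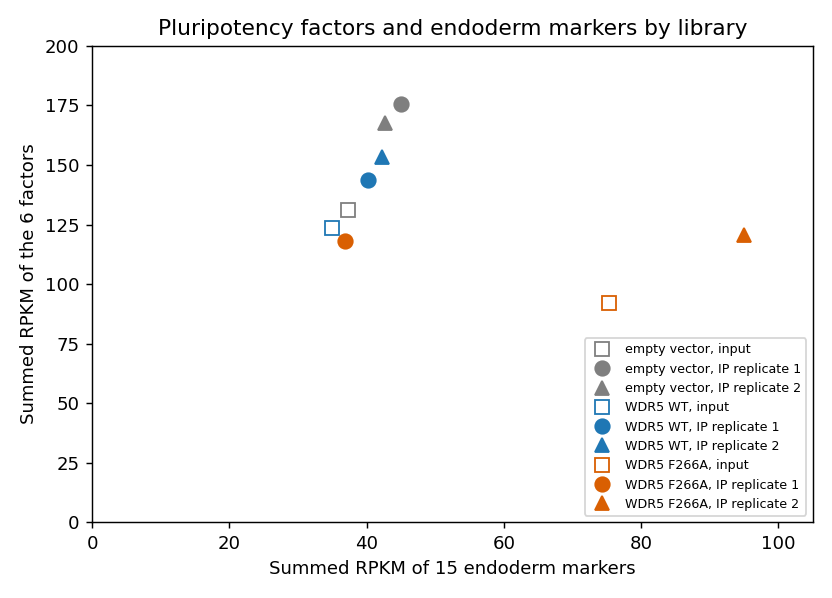
Summed RPKM of the 6 factors against the summed RPKM of 15 endoderm markers, 1 point per library, with open squares for inputs, circles for IP replicate 1 and triangles for IP replicate 2. The F266A input and F266A IP replicate 2 lie at endoderm sums of 75.4 and 94.9. The endoderm sum of F266A IP replicate 1, 36.8, lies among the sums of the other lines.

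The IP levels were compared between lines with limma, with Benjamini-Hochberg adjustment over the 9787 tested genes. Against the empty vector, Pou5f1 was lower in F266A by -0.83 on the log2 scale (SE 0.18, adjusted p = 0.0434 from limma), and was the 1 of 6 factors that passed. Of all tested genes 4.55% passed in this comparison, 3.38% lower and 1.16% higher. Nanog differed by -0.41 (SE 0.12, limma adjusted p = 0.0980) and Esrrb by -0.45 (SE 0.14, limma adjusted p = 0.112). For both of them the 95% interval lay below 0 before adjustment, -0.68 to -0.13 and -0.77 to -0.13, but neither passed after it. Sall4, at -0.33, Sox2, at -0.20, and Zfp281, at 0.29, had intervals that held 0. Without F266A IP replicate 1 the difference was -0.56 for Sall4, with an interval of -0.92 to -0.20 (limma adjusted p = 0.0836), -0.39 for Sox2 and 0.11 for Zfp281, and 0 of 6 factors passed. The median of the 6 factors was -0.37, beside -0.00497 over all tested genes.

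The Pou5f1 result depended on few libraries. Without F266A IP replicate 1 the difference was -0.57 (limma adjusted p = 0.0814), without empty vector IP replicate 1 it was -0.77 (limma adjusted p = 0.311) and without empty vector IP replicate 2 it was -0.89 (limma adjusted p = 0.211). Leaving out WT IP replicate 1 or 2, which moves the estimate of the spread alone, gave limma adjusted p = 0.0671 and 0.0676. Without F266A IP replicate 2 it was -1.08 (limma adjusted p = 0.0294).

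Both F266A IPs were below both empty vector IPs for 4 of 6 factors, Pou5f1, Nanog, Esrrb and Sall4, and for 28.6% of all tested genes, and above them for Zfp281, as for 25.9% of all tested genes. Both were below all 4 other IPs for 3 of 6 factors, Pou5f1, Nanog and Esrrb, and for 17% of all tested genes.

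Between WT and F266A, which differ in the mutated residue, in the length of the N-terminus and in the clone, 0 of 6 factors passed, and 1.16% of all tested genes did. Nanog came closest, higher in WT by 0.56 on the log2 scale (SE 0.12, limma adjusted p = 0.0777). Under a filter of at least 5 RPKM in 2 libraries, with fewer genes tested, its limma adjusted p was 0.0495, and over the other alternatives it was 0.0683 to 0.220. Pou5f1 was higher by 0.50 (SE 0.18, limma adjusted p = 0.220), with a 95% interval of 0.09 to 0.91. Without F266A IP replicate 1 the difference was 0.59 for Nanog (limma adjusted p = 0.0889) and 0.25 for Pou5f1. The other 4 factors differed by -0.12 to 0.24. Without that library Sall4 differed by 0.47, with an interval of 0.11 to 0.83 (limma adjusted p = 0.175), Sox2 by 0.24, Esrrb by 0.14 and Zfp281 by 0.0484. Both WT IPs were above both F266A IPs for 3 of 6 factors, Pou5f1, Nanog and Esrrb, and for 23.3% of all tested genes.

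Between WT and the empty vector, 0 of 6 factors passed in limma, as did 0 of all tested genes, or 0%, of which 557 (5.69%) had an unadjusted p under 0.05 and none of these was one of the 6 factors. Their differences ran from -0.33 for Pou5f1 to 0.16 for Zfp281. The 95% interval was -0.74 to 0.09 for Pou5f1 and -0.12 to 0.43 for Nanog. Both WT IPs were above both empty vector IPs for Nanog and Zfp281, as for 21.2% of all tested genes, and below them for Pou5f1 and Esrrb, as for 17.8%.

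**Figure D3:**
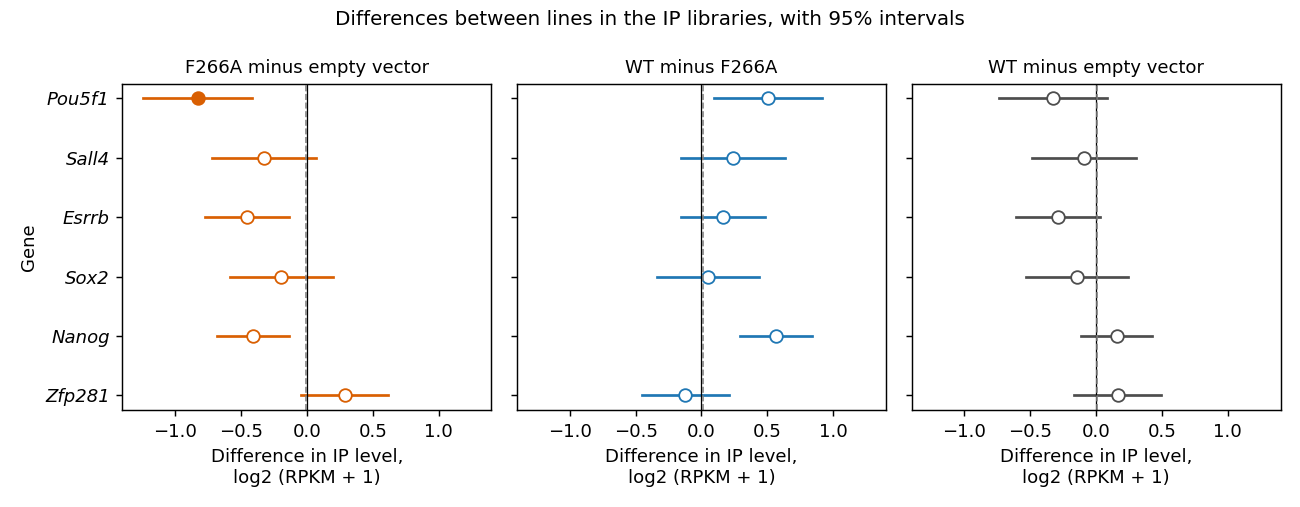
Difference in IP level between lines for each factor on the log2 (RPKM + 1) scale, with the limma estimate as a point and its unadjusted 95% interval as a line. The filled point, Pou5f1 in F266A against the empty vector at -0.83, is the estimate that passed a Benjamini-Hochberg adjusted p of 0.05, and the dashed lines are the medians of all tested genes.

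The study's own measure was the IP against the input of the same line. The enrichment score, log2 (RPKM + 1) of the IP minus that of the input, was above 0 for most genes in every IP, the empty vector IPs without any tagged protein included, with medians of 0.26 to 0.39. Averaged over the 3 lines the IP was above the input by 0.45 for Nanog (SE 0.08, limma adjusted p = 0.00501), by 0.43 for Sall4 (SE 0.12, limma adjusted p = 0.0191) and by 0.30 for Esrrb (SE 0.10, limma adjusted p = 0.0321). These 3 of 6 factors passed, all higher in the IP, where 56.9% of all tested genes passed (56.4% higher and 0.47% lower). Pou5f1, at 0.30 (limma adjusted p = 0.0689), Sox2, at 0.25 (limma adjusted p = 0.102), and Zfp281, at 0.03 (limma adjusted p = 0.799), did not pass, although Pou5f1 did without F266A IP replicate 1, at 0.39 (limma adjusted p = 0.0132). The median of the 6 was 0.30, as was that of all tested genes. Among the 3155 tested genes with a mean of at least 5 RPKM the median was 0.41, and Nanog and Sall4 stood at the 58.7th and 53.6th percentile, Pou5f1, Esrrb and Sox2 at the 28.1st, 27.2nd and 19.7th, and Zfp281 at the 4.56th. A larger share of reads fell on genes in the IPs, 27.2% to 29.5%, than in the inputs, 20.1% to 22.6%. When each library was scaled to the same median, 0 of 6 factors passed, where 1.56% of all tested genes did, and the difference turned to -0.28 for Zfp281, -0.06 for Sox2 and -0.01 for Pou5f1 and Esrrb.

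By line, Nanog scored 0.20 and 0.39 with the empty vector, 0.40 and 0.40 with WT, and 0.68 and 0.64 with F266A. The F266A scores were the highest, over an input that was the lowest. Sox2 scored 0.21 and 0.34 with the empty vector, -0.27 and 0.06 with WT, and 0.77 and 0.39 with F266A. Its WT scores were both below the 4 others, a position whose share over all tested genes was not computed. The difference between WT and F266A for Sox2 was -0.68 (SE 0.29), with a 95% interval of -1.36 to -0.01, and did not pass (limma adjusted p = 0.9998), and without F266A IP replicate 1 it was -0.49.

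Pou5f1 scored 0.54 and 0.43 with the empty vector, 0.24 and 0.36 with WT, and -0.13 and 0.38 with F266A. The single score below 0 was that of F266A IP replicate 1. Zfp281 scored -0.22 and -0.09 with the empty vector, -0.12 and 0.03 with WT, and 0.46 and 0.12 with F266A. Both of its empty vector scores were below 0 and both of its F266A scores above it, yet the difference of 0.44 (SE 0.25) did not pass (limma adjusted p = 0.9996), and without F266A IP replicate 1 it was 0.27. The scores of Esrrb, 0.10 to 0.47, and of Sall4, 0.28 to 0.78, overlapped between lines.

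In none of the 3 comparisons of scores between lines did any of the 6 factors pass in limma, nor did any tested gene, so that the background was 0%. At an unadjusted p under 0.05 there were 259 genes (2.65%) for WT against F266A, 173 (1.77%) for WT against empty vector and 243 (2.48%) for F266A against empty vector, and Sox2 in the first of these was the single factor among them. The 95% interval of the WT minus empty vector difference was -0.90 to 0.53 for Pou5f1, -1.06 to 0.29 for Sox2 and -0.37 to 0.58 for Nanog.

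**Figure D4:**
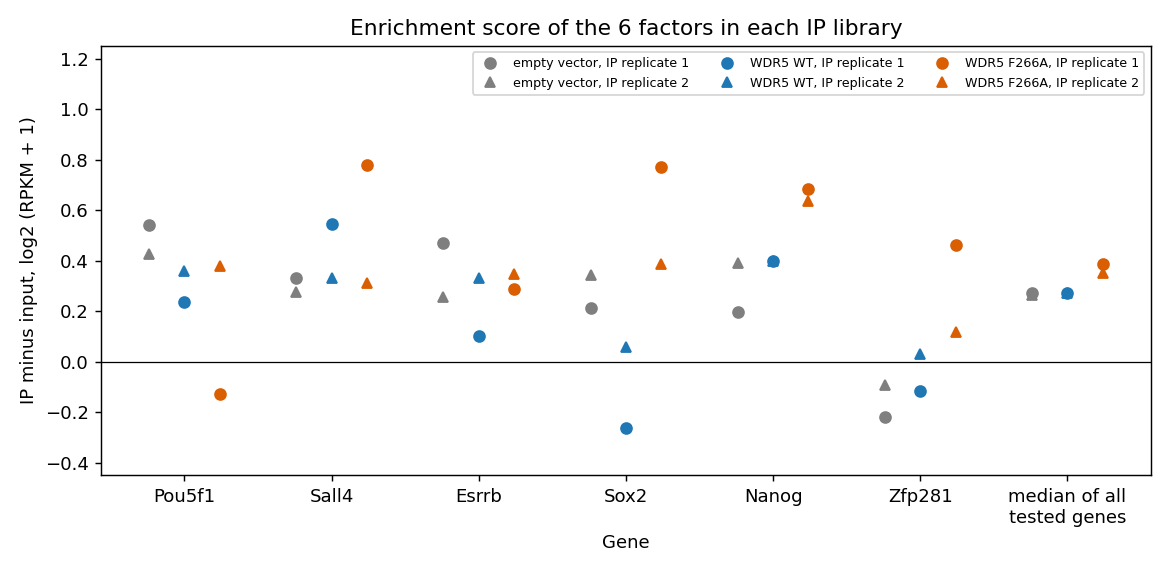
Enrichment score (IP minus input of the same line, log2 RPKM + 1) of each factor in the 6 IP libraries, with circles for IP replicate 1 and triangles for IP replicate 2, and the median of all tested genes at the right. Sox2 and Zfp281 have their highest score in F266A IP replicate 1, at 0.77 and 0.46, where Pou5f1 has its lowest, at -0.13.

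The rule by which the study called an RNA enriched asked that the lower WT score be above 0 and above all 4 control scores. It was met by 0 of the 6 factors, and by 5.29% of all tested genes. Sox2 fell short most clearly, with a lower WT score of -0.27 beside a highest control score of 0.77. The lower WT score of Zfp281, -0.12, was also below 0. With the F266A line in the place of WT, 3 of 6 factors met it, Nanog, Sox2 and Zfp281, where 23.5% of all tested genes did, and with the empty vector line, which has no tagged WDR5, Pou5f1 met it, 1 of 6, where 4.48% of all tested genes did. The same 3 factors met it for F266A without F266A IP replicate 1, where the rule asks 1 score only and 36.1% of all tested genes met it, but Nanog alone met it after the scores were centred on the median of each library, where 6.72% did. When the mean of the 3 inputs replaced the input of each line, the factors that met the rule were Nanog for WT, where 5.6% of all tested genes did, none for F266A, where 12.4% did, and Pou5f1 and Esrrb for the empty vector, where 10.4% did.

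The wider network was compared in the same way. Of 20 further pluripotency transcription factors, 19 were tested, and 3 were lower in F266A than in the empty vector IPs (limma, Benjamini-Hochberg), with 0 higher and a median of -0.21, where 3.38% of all tested genes were lower and 1.16% higher. They were Klf2, a Krüppel-like factor of naive ESCs, at -1.20 (limma adjusted p = 0.0187), Tfap2c, an AP-2 factor, at -0.68 (limma adjusted p = 0.0368), and Mybl2, a cell cycle factor, at -0.61 (limma adjusted p = 0.04998). Another list held 17 genes commonly listed as activated by Pou5f1 and Sox2, or as ESC-specific, here called targets for short. Of these 17, 3 were lower and 0 higher, with a median of -0.29. The 3 lower genes were Lefty1 and Lefty2, secreted inhibitors of Nodal signalling, at -1.55 and -1.47, and Tcl1, an activator of Akt, at -1.41. Of 28 protein partners of the factors, chromatin subunits for the most part, 0 were lower or higher, with a median of -0.06.

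Klf2, Tcl1 and Lefty2 were also higher in WT than in F266A in limma, by 1.01, 1.14 and 1.36, where 0.777% of all tested genes were higher. No other gene of the 3 lists passed in that comparison with all libraries. Without F266A IP replicate 1, Tfap2c (0.73), Mycn (0.81) and Lefty1 (2.04) passed as well, and 1.09% of all tested genes were higher. The calls of Klf2, Tcl1 and Lefty2 were lost with no filter on low values and without either empty vector IP or either WT IP, where 0 genes passed. Klf2 was also lost under median scaling, and Klf2 and Lefty2 under quantile normalization, where 85 and 78 of all tested genes passed. Leaving out F266A IP replicate 2 lost Klf2 and Lefty2 as well. None of the 3 lists had a gene past the threshold between WT and the empty vector or in any comparison of scores. In the inputs, 17 of the 20 network factors, 22 of the 28 partners and 13 of the 17 targets were lowest in F266A, beside 58.9% of all tested genes. Lefty1 was at 9.28 RPKM in the empty vector input, 7.66 in the WT input and 1.253 in the F266A input, and at 5.92 and 1.96 in the F266A IPs. The higher of these IPs was replicate 1, the library with the lower endoderm sum. Without that library, F266A was lower than the empty vector for 3 of 19 network factors, Klf2, Tfap2c and Nr0b1, an orphan receptor, for 5 of 17 targets, Lefty1, Lefty2, Tcl1, Dppa3 and Spp1, and for 0 of 28 partners (limma, Benjamini-Hochberg), where 2.75% of all tested genes were lower. The difference was then -1.46 for Klf2 and -2.16 for Lefty1, and Mybl2 no longer passed. Leaving out either WT IP, Tfap2c, Mybl2 and Lefty1 did not pass, and the network factor Gbx2 passed as higher. Under quantile normalization Mybl2 and Lefty1 did not pass, and the target Utf1 passed as higher. There 1.73% of all tested genes were lower and 0.746% higher. Leaving out F266A IP replicate 2, Tfap2c and Mybl2 did not pass. Without empty vector IP replicate 1 or 2, and with no filter on low values, 0 genes of the 3 lists passed in F266A against the empty vector, where 0, 4 and 2 of all tested genes did.

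Of 12 paralogs of the 6 factors, Sall1 had the highest mean, 17.1 RPKM, followed by Pou2f1 at 5.03, Sox15 at 4.78 and Zfp148 at 1.72, and the other 8 were under 1. Sox15, a Sox factor that can bind with Pou5f1, was at 7.21 and 7.19 RPKM in the empty vector IPs and 2.49 and 3.14 in the F266A IPs, a difference of -1.11 (limma adjusted p = 0.0210), and of -0.99 without F266A IP replicate 1 (limma adjusted p = 0.0467), but it did not pass without either empty vector IP or with no filter on low values. In the inputs, Sox15 was at 3.93 RPKM with the empty vector, 5.21 with WT and 2.32 with F266A. Sall1 overlapped between the F266A and empty vector IPs, as Sox2 did.

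As a description over the 9 libraries, which share depth and line, the 15 pairs among the 6 factors had a Pearson's r of log2 (RPKM + 1) from -0.56, for Pou5f1 and Zfp281, to 0.89, for Pou5f1 and Esrrb, with a median of 0.68. Over the 6 IPs alone the median was 0.33. The genes with the pattern most like each factor, among 3154 genes with a mean of at least 5 RPKM, were Cst3 and Aldoc for Pou5f1 (r = 0.98 and 0.97), Nmt2 and Baz1b for Sox2 (r = 0.98 and 0.96), Gfer and Eif2b5 for Nanog (r = 0.97 for both), Mapk3 for Esrrb (r = 0.97), Sptan1 and Rcc2 for Sall4 (r = 0.99 and 0.98), and Tns3 and Lmtk2 for Zfp281 (r = 0.89 and 0.84). None of the 6 factors was among the genes most like another.

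The transcripts also differ in build. The longest GENCODE M1 transcript was 1347 bases with 57.5% GC for Pou5f1, 2211 bases with 45.8% for Nanog, 2457 bases with 52.1% for Sox2, 4300 bases with 54.9% for Esrrb, 5073 bases with 53.8% for Sall4 and 4937 bases with 43.1% for Zfp281. The median tested gene had 2946 bases and 50.2% GC. Zfp281 and Nanog, with the lowest GC of the 6, had the lowest and the highest IP minus input over the 3 lines.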

How the data were processed

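RIPiT-seq was analysed in 9 libraries of 3 mouse ESC lines, 1 input and 2 IPs each, assigned from the sample labels. The values are RPKM per RefSeq symbol as deposited by the authors, who aligned to mm9 (TopHat 1.1.3) and used a script of their own. Reads on near-identical copies, and the use of strand in counting, are not given in the sources used here. No count test was run. Depth was estimated from the lowest RPKM steps, the value of 1 read, at 13400000 to 50200000 mapped reads, and covers counting error only.

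The test was limma 3.58.1 under R 4.3.3 (lmFit, then eBayes with trend) on log2 (RPKM + 1). It took the 9787 genes that reached 1 RPKM in 2 or more libraries, a coefficient for each line in each fraction, 3 residual degrees of freedom from the 3 IP pairs, and a Benjamini-Hochberg adjusted p under 0.05. This scale understates the change of genes with low RPKM. Single inputs were assumed to vary like the IPs. Nothing in the labels says that IP replicates came from separate cultures, so p-values measure the spread between these libraries. For the empty vector and WT pairs it may be technical. The F266A pair differed in summed Y-linked RPKM, 0.0383 in replicate 1 and 7.21 in replicate 2. The spread of that pair enters the tests of all comparisons, WT against empty vector included. The fit was also run on simulated data, with the same spread for inputs and IPs and no differences between libraries except planted ones. That run cannot tell how the fit behaves where inputs vary unlike the IPs or a library stands apart. Other steps used Python 3.11.15 with pandas 2.3.3. Gene positions were read from GENCODE M1 (mm9), and promoter windows from RefSeq on GRCm38.p6, whose coordinates cannot be exchanged with mm9.

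The 6 factors and all lists were chosen with earlier results of these data known. Named besides the 6 factors were at most 4 genes per list and comparison, by smallest adjusted p under 0.05, the paralogs by level, and 2 genes most like each factor, of which 1 for Esrrb is not reported here. The Y-linked genes, Gm5712, Sox2ot, Gm14261 and the endoderm examples were chosen after their values were seen. So were the genes called without F266A IP replicate 1 or under other alternatives, and the spacing of the octamer and Sox motifs. Alternatives were another pseudocount, other filters, median scaling, quantile normalization, a replicate block, eBayes without trend, an additive fit, other forms of the enrichment rule, and leaving out each IP.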

Additional observations from a re-analysis of the deposited data

How the results depend on the processing

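Over 552 recomputed differences of the 6 factors, 510 kept their direction and their side of the threshold. A further 16 lost a call in the same direction, 4 gained one and 22 reversed direction. Among those reversed in IP against input, Esrrb under median scaling and quantile normalization and Sall4 under quantile normalization lost a call as well. Of the genes past the threshold, no filter on low values left 0 in WT against F266A, 2 in WT against empty vector, 2 in F266A against empty vector (445 as reported), 33, 45 and 22 in the comparisons of scores (WT against F266A, WT against empty vector, F266A against empty vector, with 0 reported in each) and 3258 in IP against input (5567 as reported), with 0 of the 6 factors in F266A against empty vector and 1 in IP against input. Of the 6 factors, 1 passed in WT against F266A with at least 5 RPKM in 2 libraries, a filter that left 4 genes in WT against empty vector and 3067 in IP against input. Quantile normalization gave 2 genes in WT against empty vector, 242 in F266A against empty vector with 0 factors, and 239 in IP against input with 0 factors. Median scaling gave 153 genes and 0 factors in IP against input, and a pseudocount of 0.1 gave 88 genes in the scores of F266A against empty vector. For the rule of the study, the mean of the 3 inputs gave 1 factor. The cause was not tested.

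The correlation of the replicate differences was 0.26 for WT and F266A, 0.11 for WT and empty vector, and 0.01 for F266A and empty vector. The main fit did not pair the libraries by their replicate numbers. Blocking on these numbers, 154 genes passed in WT against F266A, 7 in WT against empty vector, 607 in F266A against empty vector, 0 in each comparison of scores and 5847 in IP against input, and this replicate block changed no call of the 6 factors.

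Leaving out 1 IP at a time, with the lone library assumed to vary like the others, gave 0 to 196 genes in WT against F266A (114 as reported), 0 to 7 in WT against empty vector, 0 to 480 in F266A against empty vector with 0 to 1 factors, 0 to 2 in the scores of WT against F266A, and 3998 to 5875 in IP against input with 1 to 4 factors. The highest, 196 and 480, came without F266A IP replicate 1. Signs turned within these ranges of IP level: WT against F266A for Zfp281 (-0.30 to 0.0484) and Sox2 (-0.14 to 0.24), and WT against empty vector for Sall4 (-0.20 to 0.0191) and Sox2 (-0.31 to 0.0153). They also turned in the scores of WT against F266A for Sall4 (-0.34 to 0.13), Esrrb (-0.21 to 0.0146) and Pou5f1 (-0.0807 to 0.43), in those of F266A against empty vector for Esrrb (-0.15 to 0.0588), and in IP against input for Zfp281 (-0.0277 to 0.0873).

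IP against input reversed under median scaling and quantile normalization for Zfp281 (-0.28 and -0.32), Sox2 (-0.0594 and -0.19), Esrrb (-0.0113 and -0.17) and Pou5f1 (-0.00775 and -0.13), and under quantile normalization for Sall4 (-0.0434). The Esrrb score difference of WT against F266A turned to 0.00175 and 0.0259. With 1 input per line and 2 IPs, intervals of score differences are wide, and depth limits Nanog and Zfp281 most.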
